A study of Mus musculus with 6 samples.

Results

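The extracellular matrix and stellate cell genes of the liver are described here across 3 S1P lyase knockout (KO) livers and 3 wild-type (WT) livers. Members were taken from a list of 40 gene symbols, by every probe set that the array's annotation assigns to exactly 1 symbol and that symbol is on the list. The rule found 38 of the 40 genes, out of 18194 genes with such a probe set, and 86 probe sets. Ctgf was found under its current symbol, Ccn2, through its gene identifier. The Loxl2 probe sets carry a further symbol and were not used, and Fbn1 was not analysed here. All 38 genes had at least 1 of 76 probe sets bright enough to be tested, and each gene is represented by its brightest one.

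The KO mice lack sphingosine-1-phosphate (S1P) lyase, the enzyme that removes the signalling lipid S1P, and the WT mice carry the normal gene. Both groups share a mixed C57BL6 and 129sv background and received no treatment. The labels give neither age nor sex, and do not say how the gene was disrupted or in which cells. Liver RNA of 1 animal was hybridised to each Affymetrix array.

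The matrix of a healthy liver is thin. Hepatic stellate cells sit between hepatocytes and the sinusoids, store vitamin A and make much of the collagen, while portal fibroblasts, endothelial cells and hepatocytes supply other components. In injury, stellate cells can lose their vitamin A stores, take on the contractile features of myofibroblasts and deposit fibrillar collagen, a process driven in large part by transforming growth factor beta (TGF-beta) and platelet-derived growth factor (PDGF). Matrix metalloproteinases and their tissue inhibitors, the TIMPs, set how fast the matrix is removed.

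Sgpl1, which encodes the enzyme, read 2.46, 2.99 and 2.87 log2 in KO livers, against 6.65, 6.90 and 6.71 log2 in WT livers. Expression is given throughout as the deposited log2 signal, on which 1 unit is a doubling, and levels of different probe sets cannot be set against each other. Control probe sets moved with genotype: the 3' minus 5' signal of Actb, a measure of RNA integrity, was 1.12 to 1.45 log2 in KO arrays, against 0.81 to 0.97 log2 in WT arrays. That of Gapdh was 0.47 log2 higher in KO arrays, and that of Pcx 1.01 log2 higher, at 2.77 to 3.40 log2 in KO arrays, against 1.97 to 2.31 log2 in WT arrays. The poly-A spike-in controls, bacterial RNAs put into each sample, averaged 0.75 log2 higher in KO arrays. Centred on them, every difference is 0.75 lower and the median over all genes is -0.80. Centred on 12 hepatocyte markers the median over all genes is 0.10. The part of RNA integrity or scale in any difference below was not tested.

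Of the 38 members, 8 rose, 6 fell and 24 did not pass (limma, Benjamini-Hochberg adjusted p under 0.05 over 13370 genes). The background is wide: 18.6% of all genes tested passed, 10.5% upwards and 8.09% downwards. The members' differences, KO minus WT, ran between -0.64 and 2.40 log2. Their median was 0.03 log2, beside -0.05 over all genes tested. The genes that rose were Ctgf, Thbs1, Mmp14, Nid1, Col4a1, Timp1, Fn1 and Pdgfrb, and those that fell were Reln, Lum, Mmp2, Col5a1, Eln and Loxl1. KO and WT values did not overlap in 21 members, 11 higher and 10 lower in KO, beside 40.8% of all genes tested. On the poly-A scale 2 members rose and 25 fell, where 78.5% of all genes passed, 2.82% upwards and 75.7% downwards. The hepatocyte marker scale gave 11 that rose and 2 that fell, where 21.8% of all genes passed, 17.4% upwards and 4.36% downwards. Counts of members and lists on each scale, here and below, are to be read against the shares of all genes on that scale. In bulk liver, fewer cells of a type and less RNA per cell cannot be told apart.

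**Figure D1:**
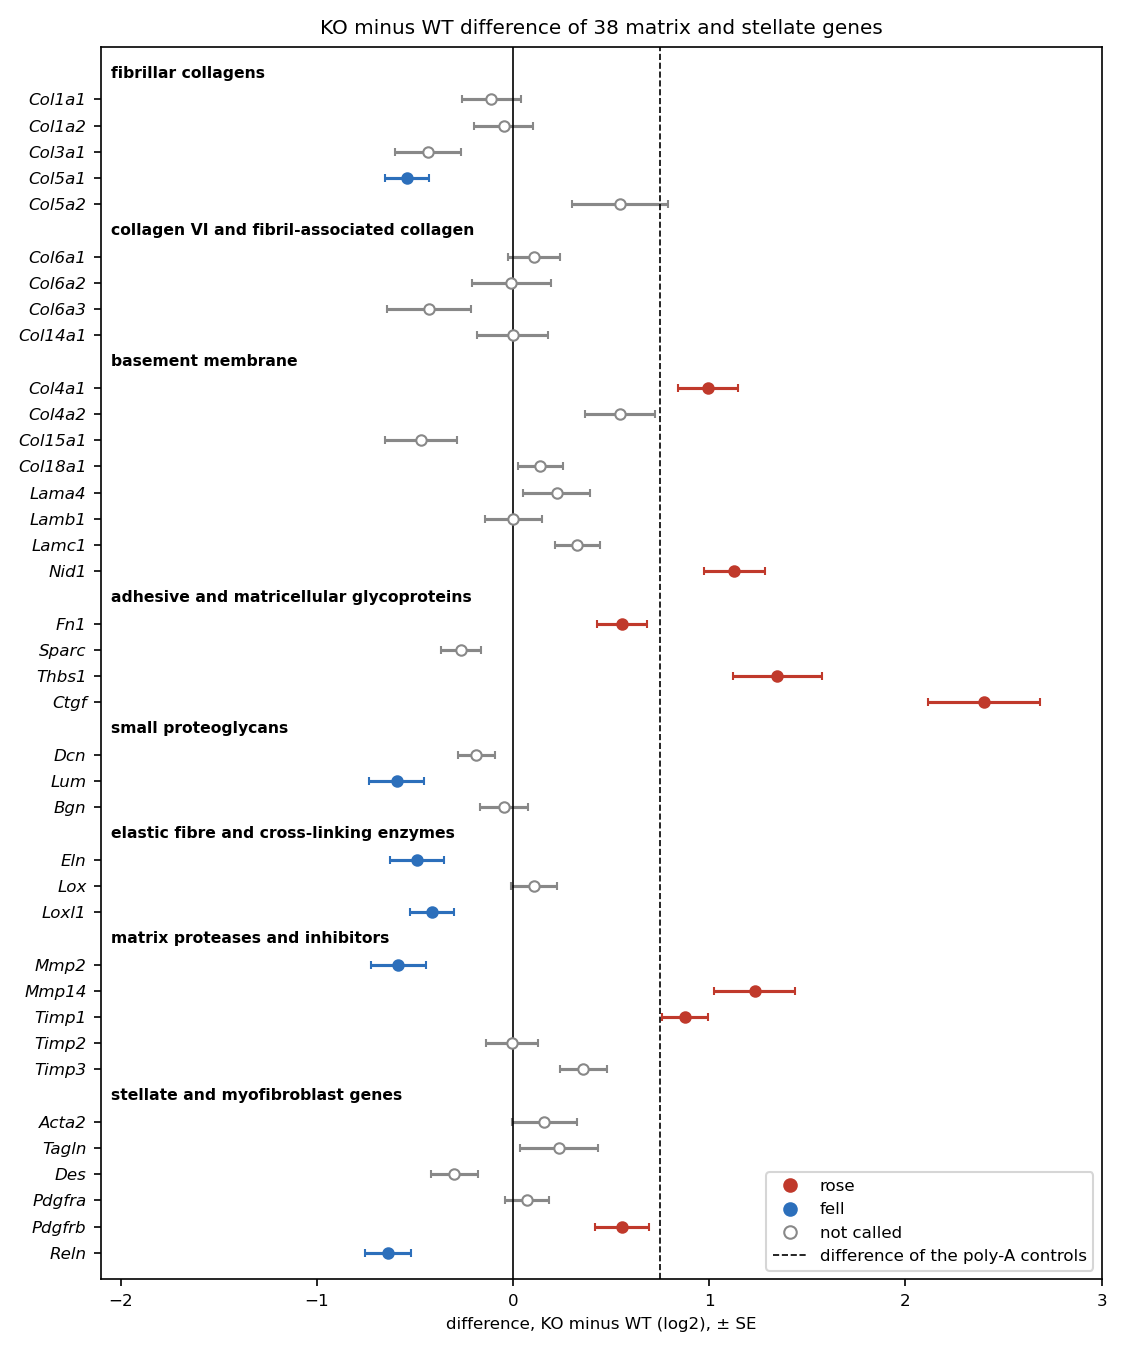
The difference of each of the 38 genes, KO minus WT in log2 with its standard error, is plotted by role of the product. Filled points rose or fell in the test, open points did not pass, and the dashed line marks the 0.75 log2 difference of the poly-A controls. The 5 fibrillar collagen genes lie between -0.54 and 0.55, while Ctgf stands at 2.40. Fn1 and Pdgfrb lie left of the dashed line and are lower in KO on the poly-A scale.

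None of the fibrillar collagen genes, which encode the ropes of the interstitial matrix and of scar tissue, passed upwards. Of 5 genes, 1 fell and 4 did not pass. Col1a1 encodes the main chain of type I collagen and read 6.17, 6.29 and 5.96 log2 in KO livers, against 6.13, 6.50 and 6.12 log2 in WT livers. The groups overlapped, and the difference was -0.11 log2 (95% interval -0.46 to 0.24). Its second, dimmer probe set stood at 0.29 log2 (SE 0.14) with all KO livers above all WT livers, without passing. Col1a2, the partner chain, read 8.43, 8.40 and 8.02 log2 in KO livers, against 8.15, 8.47 and 8.37 log2 in WT livers. These values overlapped too, with a difference of -0.05 log2 (95% interval -0.40 to 0.30). The signs of both differences turned under several other settings. Col3a1, the type III collagen of reticular fibres, read 9.80, 10.09 and 9.45 log2 in KO livers, against 10.23, 10.34 and 10.07 log2 in WT livers. Only the highest KO value reached the WT range, and the difference of -0.43 log2 (SE 0.17) did not pass (limma adjusted p = 0.111). A second, dimmer Col3a1 probe set stood at -0.57 log2 (SE 0.22) with all KO livers below all WT livers, without passing. Col1a1, Col1a2 and Col3a1 are called lower on the poly-A scale, at -0.86, -0.80 and -1.18 log2.

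Type V collagen starts and limits the growth of fibrils. Its gene Col5a1 read 6.47, 6.45 and 6.34 log2 in KO livers, against 7.08, 6.94 and 6.87 log2 in WT livers. All KO livers lay below all WT livers, and the gene fell by 0.54 log2 (SE 0.11, limma adjusted p = 0.0148). That call rests on the brightest probe set, since the other 2 stood at 0.08 and -0.07 log2 without passing, and it was lost without KO replicate 2 (limma adjusted p = 0.052) and with the mean of the probe sets, at -0.17 log2. The partner gene Col5a2 had a difference in the other direction, 0.55 log2 (SE 0.24), which did not pass. In the genes of collagen VI, which forms beaded filaments around cells, and of collagen XIV, which decorates fibrils, 0 of 4 passed, with differences between -0.43 log2 for Col6a3 and 0.11 log2 for Col6a1. Col14a1 differed by -0.0013 log2 on its brightest probe set, but a dimmer one fell by 0.50 log2 (SE 0.12, limma adjusted p = 0.0252 over all probe sets tested).

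In KO livers the collagen genes shared a lowest array. In each of the 9 genes of fibrillar, VI and XIV collagens, KO replicate 3 had the lowest of the 3 KO values, and so it was in 12 of the 13 collagen genes measured. Among all genes tested KO replicate 3 was the lowest KO liver in 35.7%, and among all 38 members in 57.9%. The pattern was not particular to the collagen genes. Of the 13 endothelial markers tested, all but Clec4g, Bmp2 and Lyve1 also had their lowest KO value in that array. The mean of the 9 genes was 7.33, 7.38 and 6.88 log2 in KO livers, against 7.27, 7.43 and 7.21 log2 in WT livers. Thus KO replicates 1 and 2 lay inside the WT range and KO replicate 3 below it. Without KO replicate 3, Col1a2 differed by 0.083 log2, and 9 members rose and 3 fell. The same array had the lowest Actb 3' minus 5' value of the KO group, 1.12 log2, and the lowest poly-A control mean of that group, 8.52 log2, and their part in the collagen values was not tested. This grouping was chosen after the values were seen.

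**Figure D2:**
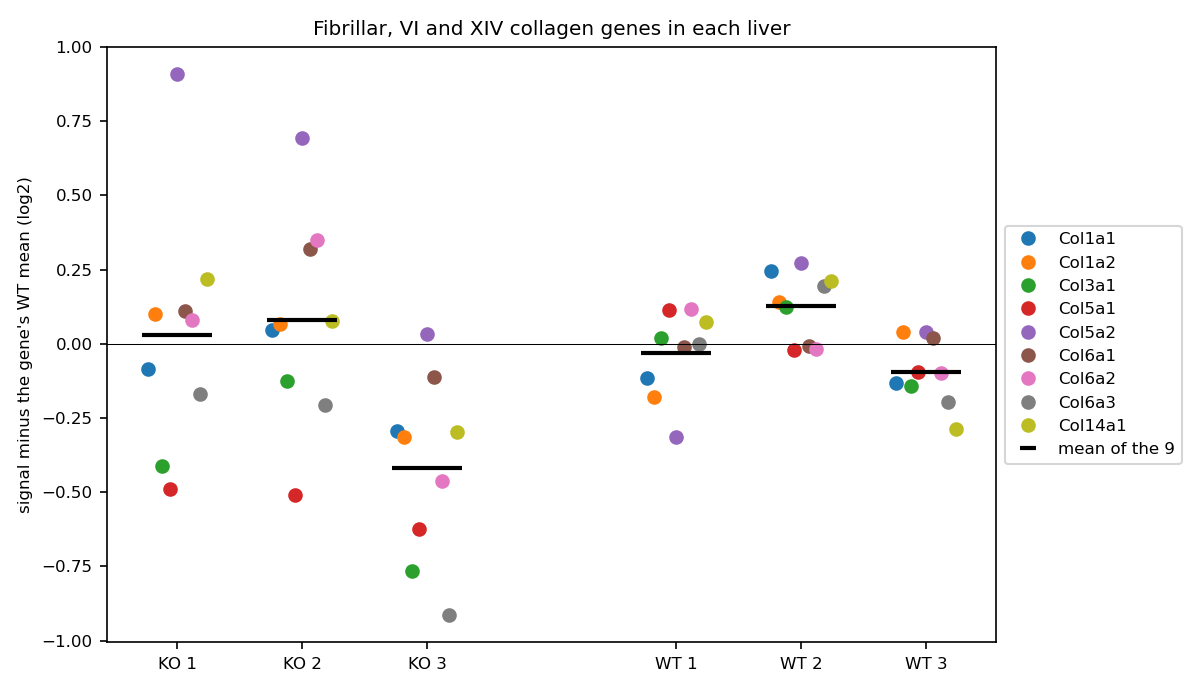
Each point is 1 collagen gene in 1 liver, as signal minus the WT mean of that gene in log2, and black bars are the mean over the 9 genes. KO replicate 3 is the lowest KO liver in all 9 genes and lies below 0 in all but Col5a2, while the means of KO replicates 1 and 2 lie within those of the WT livers. Col3a1, Col5a1 and Col6a3 are below 0 in every KO liver.

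Of the basement membrane genes, 2 (Col4a1 and Nid1) of 8 rose, beside 10.5% of all genes. The other 6 did not pass, and the median difference of the group was 0.27 log2. Whether they differed from the fibrillar collagens was not tested. Col4a1 encodes a chain of type IV collagen, the sheet-forming collagen of basement membranes. It read 8.67, 9.15 and 8.72 log2 in KO livers, against 7.93, 7.91 and 7.71 log2 in WT livers. All KO livers were higher, and Col4a1 rose 1.99-fold (0.99 log2, SE 0.15, limma adjusted p = 0.00416). Its second probe set rose by 0.72 log2 (SE 0.14). Col4a2, the chain that assembles with it, read 7.64, 7.93 and 7.32 log2 in KO livers, against 6.87, 7.14 and 7.24 log2 in WT livers. The groups did not overlap, yet the difference of 0.54 log2 (SE 0.18) did not pass (limma adjusted p = 0.068). Both genes are read from 1 shared promoter in opposite directions. In RefSeq (GRCm38.p6) their annotated starts lie within 22 bases, with Col4a2 starting at the left end and Col4a1, on the other strand, at the right end. That stretch, shown on the plus strand because both type IV collagen genes start in it, is chr8:11312805-11312826.
Col4a2 and Col4a1 starts: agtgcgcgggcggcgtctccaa

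Nid1 encodes nidogen, which links laminin to type IV collagen. It read 9.12, 8.96 and 9.42 log2 in KO livers, against 7.85, 8.21 and 8.05 log2 in WT livers. Every KO liver was above every WT liver, and Nid1 rose 2.18-fold (1.13 log2, SE 0.15, limma adjusted p = 0.00244), with a second probe set at 0.68 log2 (SE 0.13). None of the 3 genes of laminin chains, the partners of nidogen, passed. Lamc1 differed by 0.33 log2 (SE 0.12, limma adjusted p = 0.0843) with no overlap, Lama4 by 0.22 and Lamb1 by 0.0012 log2. The other Lamc1 probe set stood at -0.07 log2 with overlap. Col18a1, whose product holds the endostatin fragment, differed by 0.14 log2 and Col15a1, a related collagen, by -0.47 log2 near the dim limit of 3.58 log2, neither passing. Col4a1 and Nid1 stay above 0 on the poly-A scale, at 0.25 and 0.38 log2, and lose their calls.

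Of the 4 genes of adhesive and matricellular glycoproteins, 3 rose, beside 10.5% of all genes. Ctgf, now called Ccn2, encodes connective tissue growth factor, a secreted matrix-bound protein induced by TGF-beta and by mechanical strain. It read 8.51, 8.08 and 8.73 log2 in KO livers, against 5.70, 5.73 and 6.69 log2 in WT livers. The KO livers lay above all WT livers, of which 1 was higher than the other 2. Ctgf rose 5.28-fold (2.40 log2, SE 0.29, limma adjusted p = 0.00138), the highest fold among the 38 members, and was called in all 16 alternative settings, at 1.65 log2 on the poly-A scale. The annotation gives it 1 probe set.

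Thbs1 encodes thrombospondin 1, a platelet and matrix protein that can activate latent TGF-beta. It read 5.39, 5.32 and 4.69 log2 in KO livers, against 4.16, 3.65 and 3.55 log2 in WT livers. The groups were apart, WT values lay around the dim limit, and Thbs1 rose 2.54-fold (1.35 log2, SE 0.23, limma adjusted p = 0.00605), with a second probe set at 1.66 log2 (SE 0.31). Of 7 platelet and megakaryocyte markers, Ppbp and Pf4 rose in the same arrays and 5 did not pass. The summed level of the 7 was 9.35 to 10.25 log2 in KO livers, against 8.06 to 8.37 log2 in WT livers. Ppbp rose by 3.73 log2 (SE 0.27) and Pf4 by 2.65 (SE 0.33). Itga2b, Gp9, Gp1bb, Treml1 and Gp6 stood at 0.42, 0.41, -0.24, 0.21 and -0.0091. The part of these markers in the Thbs1 values was not tested.

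Fn1 encodes fibronectin, made by hepatocytes for plasma and by other cells for the matrix. It read 12.36, 12.46 and 12.66 log2 in KO livers, against 12.03, 12.06 and 11.71 log2 in WT livers. The groups were apart and Fn1 rose 1.47-fold (0.55 log2, SE 0.13, limma adjusted p = 0.0207), but it is lower, at -0.19 log2, on the poly-A scale. A second, dimmer Fn1 probe set rose by 1.71 log2 (SE 0.28), with means of 8.35 log2 in KO and 6.64 log2 in WT. The call of Fn1 was lost without KO replicate 2 or KO replicate 3, with an adjusted p up to 0.0666. Sparc, a collagen-binding glycoprotein, differed by -0.27 log2 (SE 0.10) with all KO livers below all WT livers, and did not pass (limma adjusted p = 0.109).

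**Figure D3:**
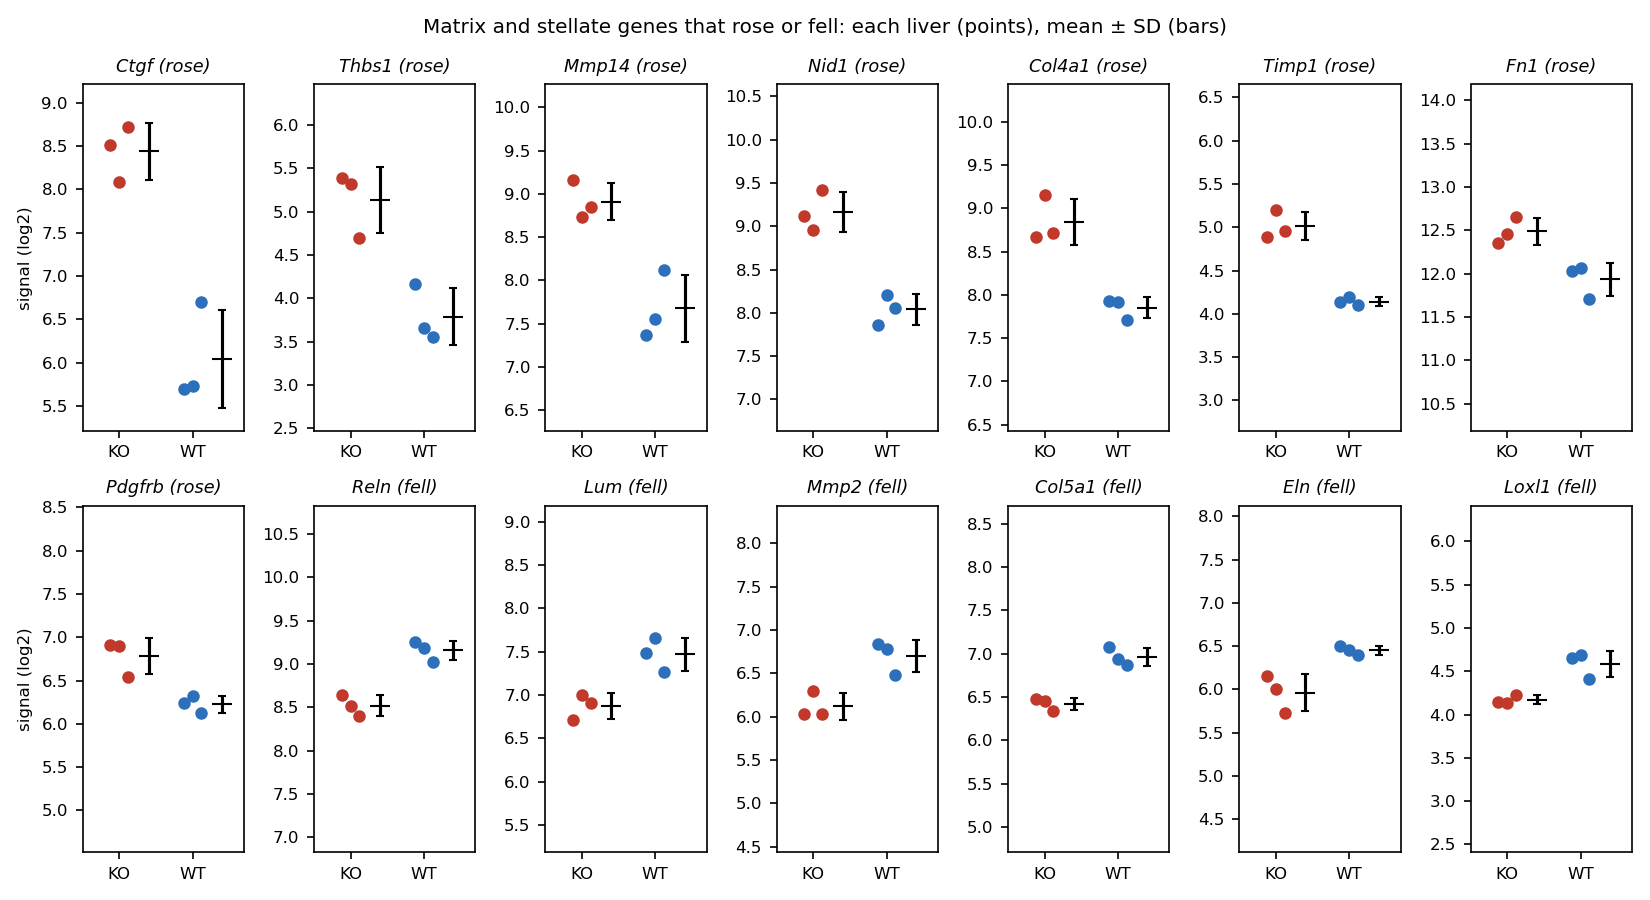
Signal in log2 is shown for each KO liver (left) and each WT liver (right) in the 8 genes that rose and the 6 that fell, with the mean and SD beside the points. Every panel spans the same range of 4 log2 units, so distances can be compared between panels. KO and WT points are apart in all 14 panels, most of all in Ctgf at 8.44 ± 0.33 log2 in KO and 6.04 ± 0.57 log2 in WT (SD, n = 3 each).

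Small proteoglycans coat collagen fibrils and set their spacing. Lum, the gene of lumican, read 6.71, 7.00 and 6.91 log2 in KO livers, against 7.48, 7.65 and 7.27 log2 in WT livers. All KO values were lower and Lum fell by 0.59 log2 (SE 0.14, limma adjusted p = 0.0242). Dcn, the gene of decorin and an abundant stellate cell and fibroblast transcript, read 10.13, 10.24 and 10.26 log2 in KO livers, against 10.36, 10.42 and 10.42 log2 in WT livers. These groups were also apart, but the difference was small, -0.19 log2 (95% interval -0.40 to 0.03), and did not pass. Bgn, the gene of biglycan, differed by -0.04 log2.

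In the elastic fibre and cross-linking group, 2 of 3 measured genes fell, beside 8.09% of all genes. Eln, the gene of elastin, read 6.16, 6.01 and 5.73 log2 in KO livers, against 6.51, 6.46 and 6.40 log2 in WT livers. It fell by 0.49 log2 (SE 0.14, limma adjusted p = 0.0406) with no overlap, and a second probe set fell by 0.54 log2 (SE 0.14). Loxl1, a lysyl oxidase that matures elastic fibres, read 4.15, 4.13 and 4.23 log2 in KO livers, against 4.65, 4.68 and 4.41 log2 in WT livers, and fell by 0.41 log2 (SE 0.11, limma adjusted p = 0.0392). Lox, the family member that cross-links fibrillar collagen, differed by 0.10 log2 and did not pass. Leaving out single livers ended these calls: Lum and Mmp2 were each lost in 4 of 6 such fits and Eln, Loxl1 and Pdgfrb in 5 of 6. On the hepatocyte marker scale Lum, Eln, Loxl1 and Mmp2 kept their sign, between -0.45 and -0.27 log2, and no longer passed. Eln also lost its call with median centring and Loxl1 with no filter on dim probe sets.

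The genes that remodel the matrix split by family member. Mmp14 encodes a membrane-bound metalloproteinase that cleaves collagen at the cell surface and activates the product of Mmp2. It read 9.16, 8.74 and 8.84 log2 in KO livers, against 7.37, 7.56 and 8.12 log2 in WT livers. All KO livers were higher and Mmp14 rose 2.35-fold (1.23 log2, SE 0.21, limma adjusted p = 0.00598). Its 2 other probe sets stood at 0.64 and 0.36 log2 without passing. Mmp2, a gelatinase made largely by stellate cells and fibroblasts, read 6.03, 6.29 and 6.03 log2 in KO livers, against 6.84, 6.78 and 6.49 log2 in WT livers. It went the other way, falling by 0.58 log2 (SE 0.14, limma adjusted p = 0.0254), and a second probe set fell by 0.63 log2 (SE 0.14).

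Timp1, an inhibitor of metalloproteinases that is induced in injury and inflammation, read 4.89, 5.20 and 4.96 log2 in KO livers, against 4.13, 4.19 and 4.10 log2 in WT livers. KO livers were higher throughout and Timp1 rose 1.83-fold (0.87 log2, SE 0.12, limma adjusted p = 0.00223). Neither of the inhibitor genes Timp2 and Timp3 passed, at -0.0066 and 0.36 log2 (SE 0.13 and 0.12). On the brightest Timp3 probe set all KO livers were higher. The other Timp3 probe sets stood at 0.28, 0.19 and -0.29 log2 without passing, and only in that at 0.28 were all KO livers again higher. Mmp14 and Timp1 stay above 0 on the poly-A scale, at 0.48 and 0.13 log2, without passing.

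Stellate cell genes showed 1 rise and 1 fall among 6. Reln encodes reelin, a secreted glycoprotein that in the liver marks stellate cells. It read 8.64, 8.52 and 8.40 log2 in KO livers, against 9.25, 9.19 and 9.03 log2 in WT livers. All KO livers were lower and Reln fell by 0.64 log2 (SE 0.12, limma adjusted p = 0.00881), a call made in all 16 alternative settings. Pdgfrb, the PDGF receptor of stellate cells and pericytes, read 6.91, 6.90 and 6.54 log2 in KO livers, against 6.24, 6.32 and 6.12 log2 in WT livers. It rose by 0.55 log2 (SE 0.14, limma adjusted p = 0.0283), but is lower, at -0.20 log2, on the poly-A scale, and its other probe set differed by -0.19 log2. Its call was also lost with quantile normalization and with the mean of its probe sets, at 0.48 and 0.18 log2. Pdgfra, the receptor also found on portal fibroblasts, differed by 0.07 log2 on its brightest probe set. Its other tested probe set stood at -0.37 log2, with all KO livers below all WT livers, and did not pass.

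The contractile markers of myofibroblasts did not pass. Acta2, smooth muscle actin, read 6.61, 6.96 and 6.61 log2 in KO livers, against 6.50, 6.83 and 6.37 log2 in WT livers. The groups overlapped, and the difference of 0.16 log2 (95% interval -0.22 to 0.54) turns to -0.59 on the poly-A scale, where it is called. The suffix of its probe set marks probes shared with other transcripts. Tagln, the actin-binding protein transgelin, differed by 0.23 log2 (95% interval -0.23 to 0.69). Des, the desmin of stellate cells and muscle, read 5.24, 5.38 and 5.45 log2 in KO livers, against 5.78, 5.63 and 5.55 log2 in WT livers. These did not overlap, and the difference of -0.30 log2 (SE 0.12) did not pass (limma adjusted p = 0.115). A dimmer Des probe set, with a KO mean of 3.41 log2 under the dim limit, stood at -0.42 log2 (SE 0.13). There too all KO livers were lower than all WT livers, without passing.

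A further list of 18 tested stellate cell markers held 1 gene that rose and 4 that fell, beside 10.5% and 8.09% of all genes. The median of the list was -0.35 log2. Lrat, the enzyme that makes the retinyl esters stellate cells store, read 5.62, 5.14 and 5.60 log2 in KO livers, against 7.23, 6.79 and 6.07 log2 in WT livers. It fell by 1.24 log2 (SE 0.28, limma adjusted p = 0.0203). Ngfr, a neurotrophin receptor, and Gfap, an intermediate filament, both used to mark stellate cells, fell by 0.60 and 0.48 log2 (SE 0.12 and 0.11), and Nt5e fell by 0.56 log2. Gfap was dim, at 3.42, 3.49 and 3.57 log2 in KO livers, under the limit of 3.58, against 4.14, 3.92 and 3.87 log2 in WT livers. The riser was Vim, at 2.09 log2 (SE 0.20), an intermediate filament that leukocytes and endothelial cells also express. The suffix of the Vim probe set marks probes that can match other transcripts. On the poly-A scale 16 of the 18 fell, beside 75.7% of all genes, and on the hepatocyte marker scale 2, beside 4.36%, and 1 or 2 fell without KO replicate 1, KO replicate 2 or WT replicate 2.

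Contractile and cytoskeletal genes linked to myofibroblasts gave 5 that rose and 1 that fell among 13, beside 10.5% and 8.09% of all genes. The median of the list was 0.10 log2. S100a6 rose by 3.99 log2 (SE 0.18), the galectin gene Lgals1 by 1.86, the actin cross-linker Flna by 1.42 and Cnn2, a calponin, by 1.23. None of these is restricted to myofibroblasts, and leukocytes express all 4. The WT mean of S100a6, 3.38 log2, lay under the dim limit of 3.58, so that gene passed the filter through its KO values. Vcl, the focal adhesion protein vinculin, rose by 0.65. The gene that fell was Tpm2, a muscle tropomyosin, by 0.42 log2 (SE 0.11, limma adjusted p = 0.0364). The other 7 genes, Myh11, Smtn, Tpm1, Cald1, Lmod1, Actn1 and Myl9, lay between -0.32 and 0.21 log2 without passing. Neutrophil markers in the same arrays rose in 8 of 9 cases and had a summed level of 13.71 to 13.88 log2 in KO livers, against 8.92 to 9.28 log2 in WT livers. Macrophage markers rose in 4 and fell in 3 of 10 cases, at a summed level of 12.34 to 12.55 log2 in KO livers, against 11.45 to 12.08 log2 in WT livers. Their part in the rises of Vim, S100a6, Lgals1, Flna and Cnn2 was not tested.

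In the TGF-beta and PDGF list 2 of 20 genes rose and 2 fell, with a median of 0.01 log2, a share of calls near that of all genes. Tgfb1, the ligand that leukocytes and platelets also supply, read 7.72, 7.68 and 7.27 log2 in KO livers, against 6.20, 6.30 and 6.37 log2 in WT livers, and rose by 1.26 log2 (SE 0.15, limma adjusted p = 0.00131). Skil, a feedback repressor of the pathway, rose by 0.86 log2 (SE 0.13). Ltbp4, which binds latent TGF-beta, and Tgfb3 fell by 0.73 and 0.42 log2. On the poly-A scale 0 of the 20 rose and 13 fell, beside 75.7% of all genes that fell, and on the hepatocyte marker scale 5 rose, beside 17.4%, and 1 fell.

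Collagen maturation genes rose in 3 and fell in 1 of 14 cases, beside 10.5% and 8.09% of all genes, with a median of 0.15 log2. The prolyl hydroxylase gene P4ha1 rose by 0.93 log2 (SE 0.26), Crtap by 0.78 (SE 0.12) and Colgalt1, which glycosylates collagen, by 0.64 (SE 0.13). Pcolce2, an enhancer of procollagen cleavage, fell by 0.56 log2 (SE 0.15). Without KO replicate 1 or KO replicate 2 the list counted 1 rise, on the poly-A scale 0 rises and 9 falls, beside 75.7% of all genes that fell, and on the hepatocyte marker scale 6 rises, beside 17.4%. Other matrix proteases and plasmin system genes rose in 5 and fell in 2 of 10 cases, beside 10.5% and 8.09% of all genes. Mmp8 and Mmp9, the collagenase and gelatinase of neutrophil granules, rose by 2.97 and 1.35 log2 (SE 0.17 and 0.18), and Plaur, the urokinase receptor, by 1.11, while Mmp19 fell by 1.13. Mmp8 and Mmp12, another of the 5 that rose, were dim in WT livers. Each had a WT mean of 3.38 log2, under the limit of 3.58, and passed the filter through its KO values.

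In the list of other matrix proteins 5 genes fell among 26 and 1 rose, beside 8.09% and 10.5% of all genes. The median of the list was -0.18 log2, and 24 fell on the poly-A scale, beside 75.7% of all genes. Dpt, Ecm1 and Mfap4, which encode dermatopontin, a secreted matrix protein and a microfibril-associated protein, fell by 1.32, 1.22 and 0.66 log2 (SE 0.23, 0.17 and 0.11). Tgfbi, a TGF-beta induced adhesion protein also made by macrophages, rose by 1.06 log2 (SE 0.14), on a probe set whose suffix marks shared probes. Matrix receptor genes rose in 3 and fell in 0 of 19 cases, and on the poly-A scale rose in 3 and fell in 13, beside 2.82% and 75.7% of all genes. Cd44, the hyaluronan receptor of leukocytes and other cells, rose by 1.90 log2 (SE 0.24), the integrin subunit gene Itgb3 by 1.71 (SE 0.27) and the syndecan gene Sdc4 by 1.31 (SE 0.27), and Itga6 differed by 0.45 without passing. In the endothelial list 3 of 13 rose and 1 fell, beside 10.5% and 8.09% of all genes. Vwf, Stab1 and Stab2 rose by 1.56, 0.88 and 0.45 log2, and Clec4g fell by 0.67. Portal fibroblast and mesothelial markers gave 1 rise among 6 tested, Gpm6a at 1.10 log2, with a WT mean of 3.29 log2 under the dim limit. The Gpm6a probe set also carries the suffix for shared probes. Of 3 tested cholangiocyte markers 0 passed. Of 12 tested hepatocyte markers 0 rose and 2 fell, beside 8.09% of all genes that fell. All 12, whose mean sets the hepatocyte marker scale, stood below 0, at a median of -0.14 log2.

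**Figure D4:**
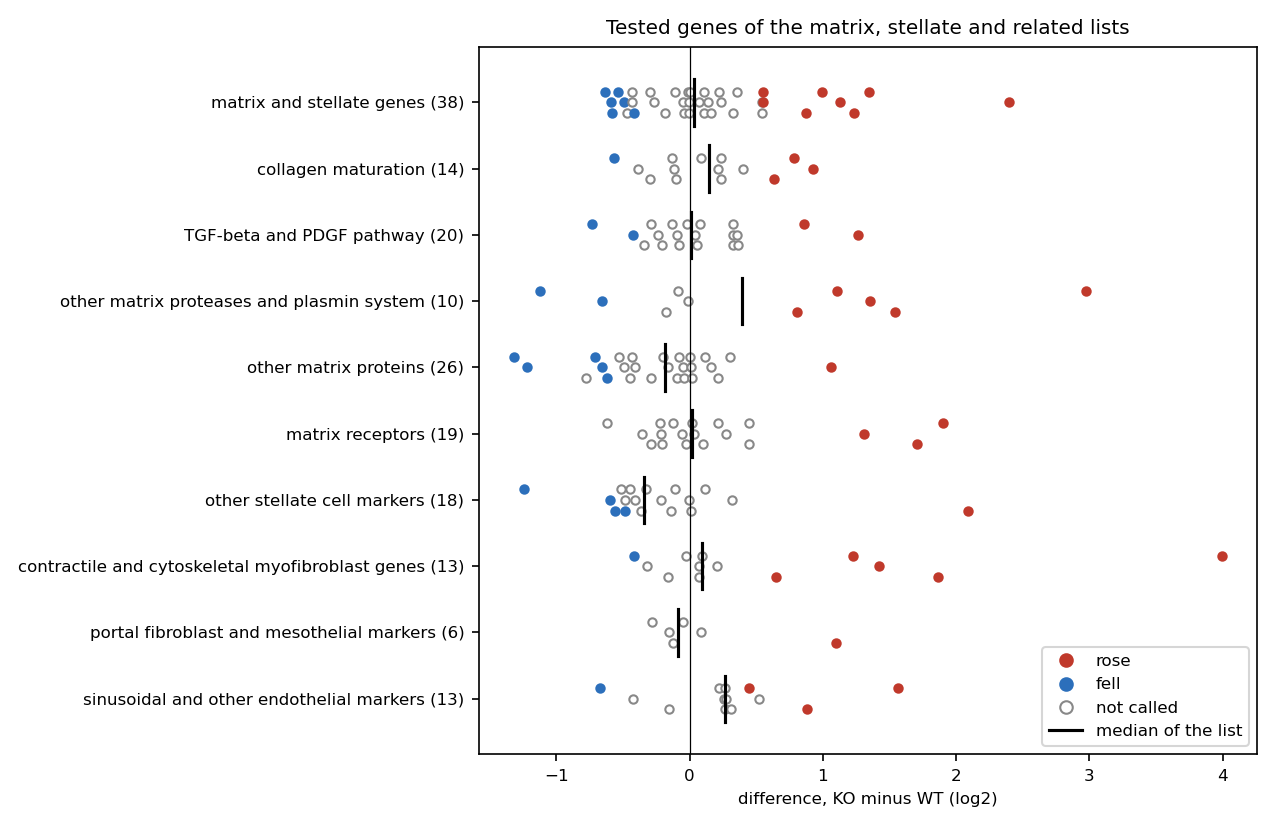
Each point is 1 tested gene, placed by its difference, KO minus WT in log2, in the matrix and stellate genes and 9 related lists, with the number of genes in parentheses and a bar at the list's median. Coloured points rose or fell in the test. Medians lie between -0.35 for other stellate cell markers and 0.39 for other matrix proteases, while single genes reach 3.99. On the poly-A scale every point would lie 0.75 further left.

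Probe sets of a member did not always agree. Of the 14 called members, 9 had a further tested probe set. In 6 of these, Col4a1, Nid1, Fn1, Thbs1, Eln and Mmp2, a further one was called the same way, and in 0 was one called the opposite way. For Col5a1, Mmp14 and Pdgfrb no other probe set was called, and for Ctgf, Lum, Loxl1, Timp1 and Reln no other was tested. Of all probe sets tested, 10.1% rose and 7.82% fell, and among the members' probe sets 12 rose and 9 fell of 76.

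**Figure D5:**
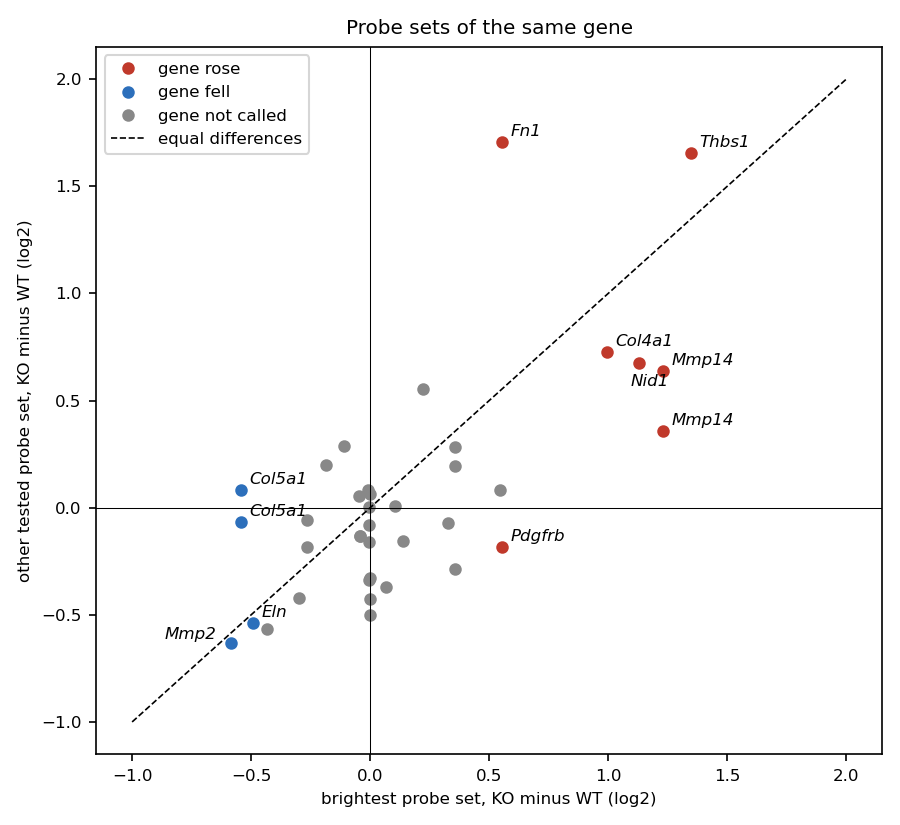
The 38 other tested probe sets of the members are plotted by their difference, KO minus WT in log2 (vertical), against that of the brightest probe set of the same gene (horizontal). On the dashed line both differences are equal. Fn1 lies far above it, at 0.55 and 1.71 log2, and Pdgfrb has opposite signs, at 0.55 and -0.19 log2.

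The calls of 7 members held when any single liver was left out: those of Ctgf, Thbs1, Mmp14, Nid1, Col4a1, Timp1 and Reln. The promoters of 4 of them are shown from RefSeq (GRCm38.p6), as the 250 bases before the annotated start on the strand of the gene, to show what sequence precedes these genes. Capitals mark CCAAT boxes (CCAAT) and GC boxes (GGGCGG) on either strand. Nid1 lies at chr13:13437352-13437601 on the plus strand, Timp1 at chrX:20869916-20870165 on the plus strand, Mmp14 at chr14:54431348-54431597 on the plus strand and Reln at chr5:22344706-22344955 on the minus strand.
Nid1: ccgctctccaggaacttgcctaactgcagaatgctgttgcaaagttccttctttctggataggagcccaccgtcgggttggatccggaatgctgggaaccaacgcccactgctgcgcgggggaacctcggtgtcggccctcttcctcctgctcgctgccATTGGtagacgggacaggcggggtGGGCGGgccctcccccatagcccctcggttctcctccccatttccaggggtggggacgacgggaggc
Timp1: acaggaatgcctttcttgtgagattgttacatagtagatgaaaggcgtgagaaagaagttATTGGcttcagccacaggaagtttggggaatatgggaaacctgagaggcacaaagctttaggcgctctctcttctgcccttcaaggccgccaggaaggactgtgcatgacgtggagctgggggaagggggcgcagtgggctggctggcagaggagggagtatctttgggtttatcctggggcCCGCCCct
Mmp14: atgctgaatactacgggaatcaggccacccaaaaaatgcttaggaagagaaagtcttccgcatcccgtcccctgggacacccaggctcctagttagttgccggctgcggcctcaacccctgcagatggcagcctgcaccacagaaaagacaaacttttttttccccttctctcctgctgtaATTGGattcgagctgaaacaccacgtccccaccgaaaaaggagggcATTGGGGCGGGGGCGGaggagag
Reln: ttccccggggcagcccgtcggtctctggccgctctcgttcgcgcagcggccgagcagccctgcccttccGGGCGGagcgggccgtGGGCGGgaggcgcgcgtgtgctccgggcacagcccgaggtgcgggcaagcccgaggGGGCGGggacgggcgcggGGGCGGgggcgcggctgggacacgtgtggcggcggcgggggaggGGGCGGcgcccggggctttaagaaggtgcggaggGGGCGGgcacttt

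The Nid1 and Timp1 windows hold 1 CCAAT box and 1 GC box each, that of Mmp14 holds 2 of each, and that of Reln holds 6 GC boxes and 0 CCAAT boxes. Of 32851 such windows in the table, 33.8% hold a CCAAT box and 32.7% a GC box, so such matches are frequent. Of the 24 windows the table has for 22 of the members, 9 hold a CCAAT box, 15 a GC box, 6 the TEAD core GGAATG, 1 an AP-1 motif and 1 a TATAAA. In Mmp14 a CCAAT box and a GC box overlap by 1 base. The TEAD core, read on both strands, occurs once each in the Nid1 and Timp1 windows and in 12.6% of all windows, and TATAAA in 0 of the 4 shown and 12.4% of all windows. The AP-1 motif TGANTCA is in 0 of the 4 and in 6.75% of all windows. These matches describe the letters only.

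Of the 38 members, 8 lie on chromosome 10, as Sgpl1 does. In a mixed background, alleles linked to the targeted gene and the loss of the gene cannot be told apart. Among them Ctgf rose and Lum fell, and the nearest to Sgpl1, Col6a2, is 272 annotated genes away.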

How the data were processed

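The deposited values are log2 signals, 1 per probe set and array, made by the authors. The only tool in the submitters' processing notes is MAS5, with no role, and no source used here states the scaling or the summarization. That the scale is log2 was judged from the range. No detection calls were used.

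Among 45101 probe sets, 64 controls and those whose mean over the 6 arrays was below the 40th percentile (3.58 log2) were dropped, which left 27022 probe sets and 13370 genes. Symbols came from the platform's annotation, and other list genes were matched by gene identifier. KO and WT were compared by lmFit and eBayes of limma 3.58.1 (R 4.3.3, intensity trend, two-sided, no covariate). The fit was also run on simulated data with independent noise. Those data held no shift of scale or RNA integrity, so that run cannot speak to either. A second fit covered all 27022 probe sets. With 3 arrays a group, precision is limited by their number.

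Members and lists were chosen with earlier results of these data known. Genes named are all members, with values per liver for called ones and for Col1a1, Col1a2, Col3a1, Fn1, Dcn, Acta2, Des, Pdgfrb and Reln, and up to 4 genes of each other list by adjusted p. Named beyond that rule, after their values were seen, were Nt5e, Mmp12, Bmp2, Lyve1, Gp1bb, Treml1, Gp6 and the remaining contractile genes. Also beyond the rule, Col4a2 was given per liver. The alternatives tried were other filters, scalings, variance models, gene summaries and probe set choices, and leaving out each array.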

Additional observations from a re-analysis of the deposited data

How the results depend on the processing

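Across 16 alternative settings, 3 of the 14 called members, Ctgf, Thbs1 and Reln, kept their call in every one in which they were tested, and 4 more (Col4a1, Nid1, Mmp14 and Timp1) lost it only with arrays centred on the poly-A controls. Thbs1, Timp1 and Loxl1 were too dim for the filter at the 60th percentile. With that centring 2 members rose and 25 fell, 10497 genes were called and the members' median was -0.71 log2. With centring on hepatocyte markers 2 members fell and the median was 0.18 log2. Leaving out 1 liver at a time gave 6 to 9 members that rose, 2 to 5 that fell, 1339 to 2381 genes called and a median of 0.0031 to 0.14 log2. The fewest genes passed without KO replicate 2 (1339), KO replicate 1 (1428) and WT replicate 1 (1625), and 2 members fell without KO replicate 2, WT replicate 1 or WT replicate 2, 3 without KO replicate 1 or KO replicate 3. Signs turned with poly-A centring in Fn1 (-0.19), Pdgfrb (-0.20) and Acta2 (-0.59). They turned with hepatocyte marker centring in Col1a1 (0.037) and Col1a2 (0.099). With the mean of probe sets they turned in Col1a1 (0.089), Col1a2 (0.0027) and Dcn (0.0071). They also turned without WT replicate 2 in Col1a1 (0.012) and Col1a2 (0.021), and without KO replicate 3 in Col1a2 (0.083). Among the fits with 1 liver left out, the lowest Col1a2 value was -0.14, without WT replicate 1. The causes were not tested. No paired analysis was possible because the labels give each mouse a number of its own. Signals near or under the dim limit bound how well folds are measured. Such signals were those of Thbs1, Loxl1 and Gfap, and in WT livers those of S100a6, Mmp8, Mmp12 and Gpm6a.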
